A study of Mus musculus with 9 samples.

Results

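The response of wild-type mouse fibroblasts to 1 h of tumour necrosis factor (TNF-α) was measured by comparing 3 stimulated with 3 unstimulated arrays, 6 of the 9 arrays of the series, over all 23410 probe sets that the platform annotation pairs with at least 1 gene. Both groups were wild-type 3T3 fibroblasts, an immortalised embryonic fibroblast line. By the study's description the wild-type cells carried an irrelevant short hairpin RNA as the control for the knock-down line. One group was left unstimulated, the other received 5 ng/ml TNF-α for 1 h, and each group held 3 samples that the study calls independent. The remaining 3 arrays were of clonal Trap-80 knock-down cells under the same stimulus (Trap-80 is a subunit of the Mediator complex). They entered the estimate of the spread between samples. They also entered the mean signal over the 9 arrays used to pick each gene's probe set and to rank probe sets. The differences given below do not use them. Values are log2 signals, so a difference of 1 is a 2-fold change.

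TNF-α bound to its receptor activates the IκB kinases, which release the transcription factor NF-κB from its IκB inhibitors, and in parallel the MAP kinases, which act on AP-1 and on immediate-early genes. In fibroblasts the first genes to respond encode chemokines, colony-stimulating factors and adhesion molecules, together with proteins that switch the signal off again (IκBα, A20 and the mRNA-degrading protein tristetraprolin). An hour is early in this programme, before most genes that require newly made transcription factors respond.

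Across the 23410 probe sets, limma called 26 higher (0.111% of those tested) and 1 lower (0.00427%) after Benjamini-Hochberg adjustment at 0.05. Each of the 27 belonged to a different single gene. Arrays with the same replicate number deviated together from their group means (correlations of 0.298, 0.110 and 0.403), but 1 differently numbered combination reached 0.249. What the number marks is not stated, so the pairing was inferred from these same data. When the replicate number was entered as a block, 51 probe sets were higher (0.218%) and 4 lower (0.0171%). The block kept 23 of the 27 genes, lost 4 (Rnd1, Cxcl5, Slc7a2 and Rel) and added 32, of which 29 were higher and 3 lower. Arrays of whole cultures cannot tell a change in the RNA per cell from a change in the number of cells that hold it. The gene counts below give the result without the block first and state the block where it changes a call. At an unadjusted p of 0.05, 824 probe sets were higher (3.52%) and 839 lower (3.58%). This balance depended on the scaling: over 19946 genes, 1 probe set each, 765 were higher and 746 lower with the deposited values, and 415 higher and 1601 lower with each array centred on its median. The sizes were unequal, since 48 probe sets differed by at least 1 log2 unit upward and 1 downward, and 13 by at least 2 upward and none downward.

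The 6 wild-type arrays correlated at 0.993 to 0.997 within groups and 0.992 to 0.997 between groups, and their median signals lay between 4.95 and 5.09. The third unstimulated array stood furthest from its group (SD of its deviations 0.18, against 0.11 to 0.16 for the other 5 wild-type arrays). Fibroblast markers were bright: 19 of the 20 measured lay above the median resting signal, Vim and Col1a1 had resting means of 12.64 and 12.58, and no marker passed the test in either direction. Markers of leukocytes (19 measured), endothelium (13), epithelium (13) and adipocytes or muscle (14) had median resting signals of 3.25 to 4.0. None of these markers passed the test either. The leukocyte marker Ptprc was at 3.20 ± 0.10 and the endothelial cadherin Cdh5 at 3.16 ± 0.26 (SD, n = 3), near the 23rd percentile of the array or below. Other markers were brighter: 2 leukocyte, 2 endothelial, 1 epithelial and 2 adipocyte or muscle markers lay above the middle of the resting array. The highest resting means of these lists were 5.67 (Cd14), 5.57 (Flt1), 5.44 (Krt8) and 6.18 (Acta1).

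**Figure D1:**
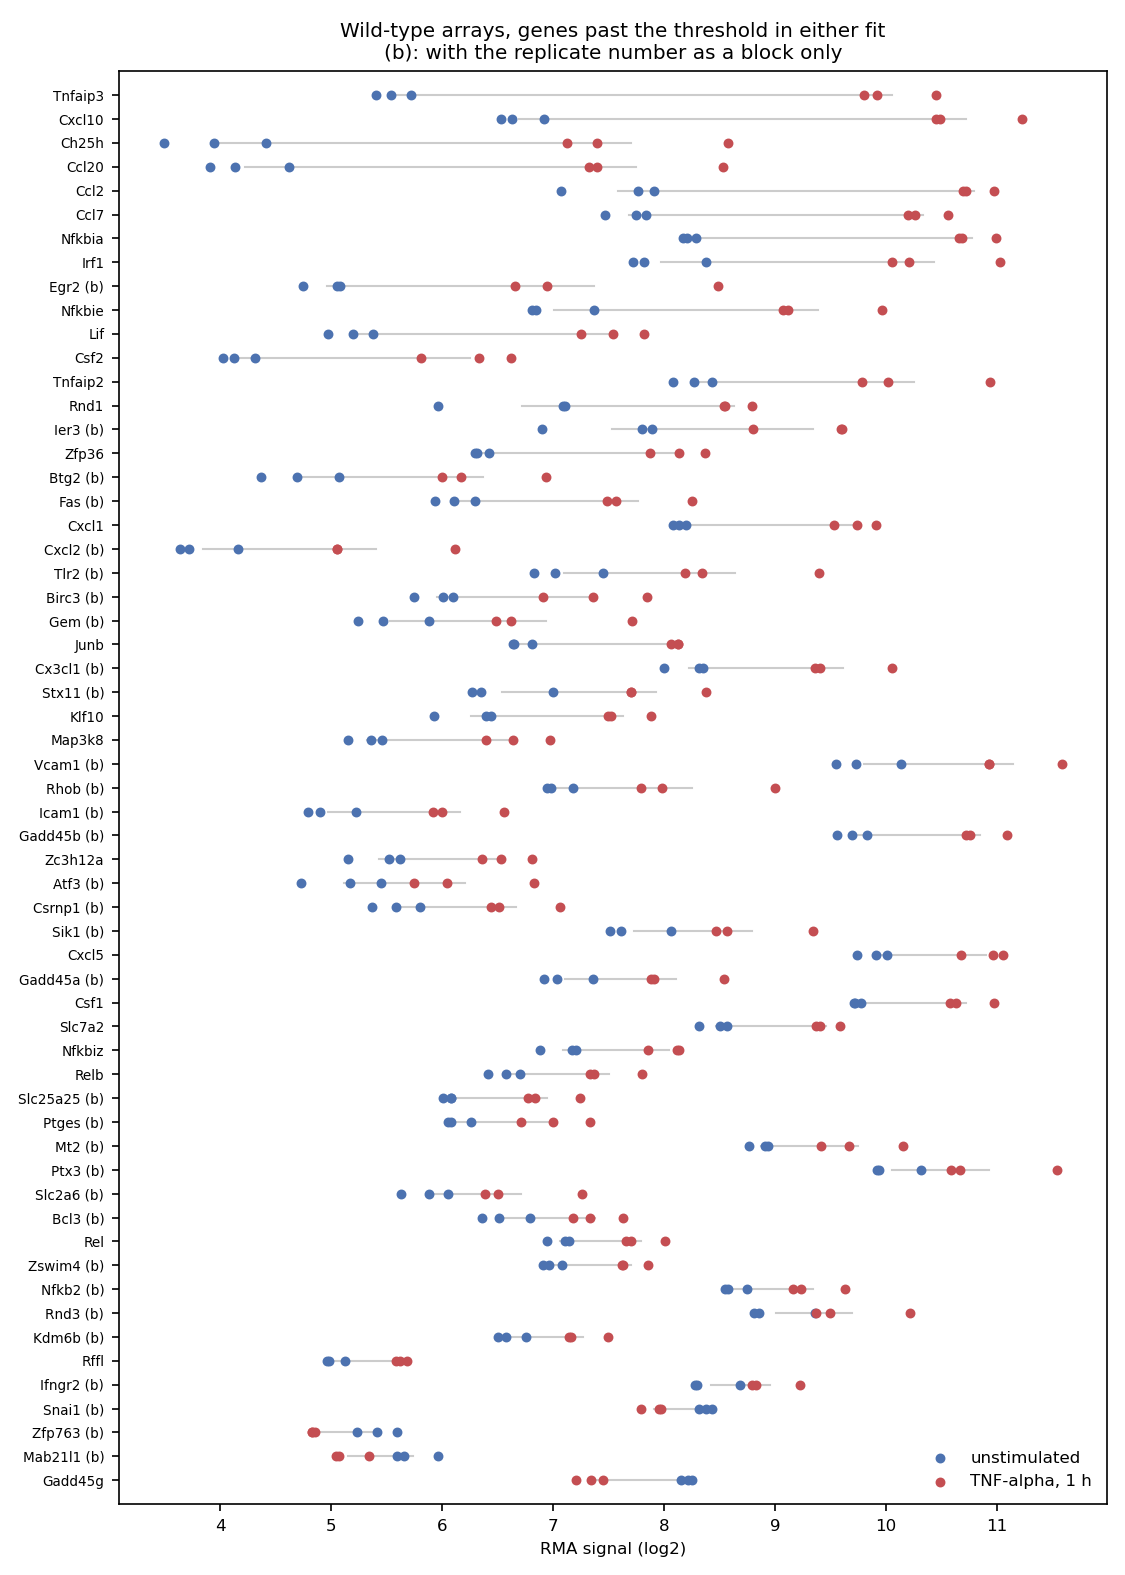
RMA signal (log2) on each of the 6 wild-type arrays for the 59 genes past the threshold in either fit, ordered by their difference; blue points are unstimulated arrays, red points arrays after 1 h of TNF-α, and (b) marks the 32 genes past the threshold only with the replicate number as a block. In all 55 genes that were higher, the 3 red points lie above the 3 blue ones, and the third stimulated array is most often the highest. The genes were chosen by fits to these same arrays.

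Among the genes for NF-κB subunits, IκB proteins and ubiquitin regulators of the pathway, the inhibitor genes Tnfaip3, Nfkbia and Nfkbie had the largest increases. Tnfaip3, which encodes the ubiquitin-editing enzyme A20, had unstimulated values of 5.72, 5.54 and 5.40 and stimulated values of 9.92, 9.80 and 10.45. Its difference of 4.5 (standard error 0.17, adjusted p = 1.1e-05, limma) was the largest of any gene tested. Leaving out each of the 6 wild-type arrays in turn kept 8 of the 27 genes past the threshold every time (Tnfaip3, Nfkbia, Cxcl10, Ccl2, Ccl7, Cxcl1, Lif and Junb). Nfkbia, which encodes IκBα, stood at 8.29, 8.21 and 8.17 before and at 10.69, 10.66 and 10.99 after stimulation, and differed by 2.56 (standard error 0.13, adjusted p = 7.8e-05). Nfkbie, the gene for IκBε, went from 6.85, 6.81 and 7.37 to 9.12, 9.07 and 9.97. Its standard error was 0.27 without and 0.09 with the block, and the third array was high in both groups. Of the 10 measured genes for NF-κB subunits and IκB proteins, 5 rose (6 with the block), all 10 had a positive difference, and their median was 0.77 against -0.02 over all 19946 genes. The nuclear IκB protein gene Nfkbiz differed by 0.96 (adjusted p = 0.016), and the subunit genes Relb and Rel by 0.94 (adjusted p = 0.048) and 0.72 (adjusted p = 0.047; 0.060 with the block). Nfkb2 differed by 0.72 and Bcl3, which encodes a further nuclear IκB protein, by 0.82, and both passed only with the block (adjusted p = 0.012 and 0.0038). Nfkbib (0.45), Rela (0.20) and Nfkbid (0.04) passed in neither fit.

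Few genes of the upstream machinery passed. Of 25 measured genes for TNF receptors, adaptors and kinases, only Map3k8, the kinase Tpl2 that links NF-κB p105 to ERK, rose (1.35, adjusted p = 0.019). Of the 25, 13 had a negative difference, and the median was -0.01. Of 23 ubiquitin regulators of the pathway, Tnfaip3 rose without the block and the inhibitor-of-apoptosis gene Birc3 with it (1.42; adjusted p = 0.087 without and 0.0096 with the block). Birc2 and Tnip1 each had a difference of 0.63 that passed in neither fit.

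Chemokines, secreted attractants of leukocytes, made up 8 of the 59 genes called. Of the 33 chemokine genes measured, 6 rose (Cxcl10, Ccl20, Ccl2, Ccl7, Cxcl1 and Cxcl5) and 7 with the block, which lost Cxcl5 and added Cxcl2 and Cx3cl1. No chemokine passed the test downward. The median difference of the class was 0.19 and its median resting signal 4.14, below the middle of the array. The 10 chemokine genes above the 50th percentile at rest, which hold each of the 6 except Ccl20, had a median difference of 1.23. Ccl2 and Ccl7, neighbouring genes for monocyte attractants, lay at the 77.4th and 78.6th percentile at rest, with Ccl7 at 7.75, 7.84 and 7.47 before and 10.26, 10.20 and 10.56 after stimulation. Ccl20, which attracts lymphocytes and dendritic cells, started from 4.62, 4.13 and 3.91 and reached 7.40, 7.32 and 8.53. Cxcl10, a T-cell attractant best known as interferon-inducible, went from 6.63, 6.92 and 6.53 to 10.49, 10.45 and 11.23. Of the neutrophil attractants, Cxcl5 differed by 1.02 from a resting mean of 9.89, Cxcl1 by 1.59 from 8.14, and Cxcl2 by 1.56 from 3.84 (adjusted p = 0.0057 with the block and 0.13 without). Differences are within each probe set; the signals of separate probe sets are not levels to set against each other, since probes vary in brightness for equal RNA.

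Among 37 cytokines of the interleukin, CSF and TNF families, 3 rose: Lif (5.38, 4.97 and 5.20 before, 7.82, 7.25 and 7.54 after), Csf2 (4.12, 4.31 and 4.02 before, 6.33, 5.81 and 6.62 after) and Csf1 (9.78, 9.72 and 9.71 before, 10.63, 10.58 and 10.98 after). These encode leukaemia inhibitory factor and the granulocyte-macrophage and macrophage colony-stimulating factors. The groups did not overlap in any of the 3, as in every gene called higher, which follows largely from how the genes were called. Over all probe sets 4.01% showed this separation upward. The list's median resting signal was 3.75, below the middle of the array. Il6 was at 2.54 ± 0.17 before and 2.97 ± 0.35 after stimulation (SD, n = 3). Its difference was 0.43, with an adjusted limma p of 0.68. The study followed Il-6 by PCR as one of its NF-κB target genes after TNF-α. At so low an array signal, the missing call does not show that Il6 was unchanged.

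With the block, 1 gene passed in each of the lists of death-receptor and survival genes, pattern-recognition genes and cytokine receptors. Fas, the death receptor, had values of 5.94, 6.11 and 6.30 before and 7.57, 7.49 and 8.25 after stimulation, a difference of 1.65 (adjusted p = 0.059 without and 0.0021 with the block). Tlr2, the receptor for bacterial lipopeptides, differed by 1.54 (0.31 and 0.0051). Ifngr2, a chain of the interferon-gamma receptor, had the smallest increase of any gene called, 0.53 (0.55 and 0.0497), with paired differences of 0.53, 0.51 and 0.54. The lists they belong to held no other gene called: 1 of 25 death-receptor and survival genes, 1 of 27 pattern-recognition genes and 1 of 32 cytokine receptor genes was called, with medians of 0.05, -0.06 and 0.10.

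Of 20 measured genes for molecules that hold leukocytes to the cell surface, 3 rose with the block and none without: Vcam1 (9.73, 9.55 and 10.14 before, 10.93, 10.93 and 11.59 after), Icam1 (4.90, 4.79 and 5.22 before, 5.92, 6.0 and 6.56 after) and the membrane-bound chemokine Cx3cl1 (8.32, 8.0 and 8.35 before, 9.41, 9.36 and 10.06 after). Their differences were 1.35, 1.19 and 1.39, and their adjusted p values with the block 0.00077, 0.0017 and 0.0036. Without it they were 0.084, 0.13 and 0.054. No integrin chain of 25 and no matrix protein gene of 37 outside the collagens passed in either fit.

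Among transcription factor genes, Irf1, an interferon regulatory factor, stood at 7.82, 7.72 and 8.38 before and 10.21, 10.06 and 11.03 after stimulation; its difference of 2.46 had an adjusted p of 0.022 without and 3.1e-05 with the block. A second probe set annotated to Irf1 differed by 0.52 (adjusted p = 0.12 without and 0.071 with the block). Of 16 AP-1, ATF and small Maf genes, Junb rose (1.41, adjusted p = 0.00025), Atf3 rose with the block (1.09, adjusted p = 0.044), and 15 had a positive difference (median 0.28). Jun differed by 1.03 and Fos by 0.26, and neither passed in either fit. Of 18 EGR, NR4A and IER genes, 3 rose with the block: Ier3 (1.81), Egr2 (2.41) and Csrnp1 (1.08). The list's median was 0.23. Nr4a1, a nuclear receptor and immediate-early gene, had stimulated values of 7.43, 7.15 and 9.36 over unstimulated values of 6.76, 6.57 and 6.5, with paired differences of 0.67, 0.59 and 2.86. Its mean difference was 1.37 (adjusted p = 0.69 without and 0.40 with the block). Myc had a difference of -0.02 (adjusted p = 0.98). Of 14 Krüppel-like factors, Klf10 rose (1.38, adjusted p = 0.021), and the median was 0.03.

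Of 27 measured genes whose products destroy mRNA, 2 rose without and 3 with the block. Zfp36, which encodes tristetraprolin, was at 6.31, 6.30 and 6.42 before and 8.14, 7.87 and 8.37 after stimulation (adjusted p = 0.010). Zc3h12a, which encodes the endonuclease regnase-1, differed by 1.13 (adjusted p = 0.046), and Btg2, an antiproliferative partner of the deadenylase complex, by 1.66 (adjusted p = 0.0018 with the block and 0.13 without). Zfp36l2, a relative of Zfp36, differed by 0.68 and passed in neither fit (0.062 and 0.069). The mRNA decay list as a whole had a median of 0.11.

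Further genes called belonged to other classes. Tnfaip2, first known as a TNF-induced gene, rose by 1.99 (8.08, 8.27 and 8.43 before, 10.02, 9.79 and 10.94 after; adjusted p = 0.032). Gem, a small GTPase that restrains calcium channels, differed by 1.41 (0.0069 with the block), whereas Rgs2, a brake on G-protein signalling, had a difference of -0.58 that passed in neither fit. Among 379 solute carriers, Slc7a2, a cationic amino acid transporter, rose by 0.99 (adjusted p = 0.047; 0.069 with the block), and the mitochondrial carrier Slc25a25 by 0.89 (0.019 with the block). Slc2a6, a glucose transporter family member, differed by 0.86 (0.049 with the block). Ptges, which makes prostaglandin E2, differed by 0.88 (0.047 with the block). Ch25h, which makes 25-hydroxycholesterol, was the only one of 29 cholesterol and oxysterol genes to pass; it went from 3.49, 3.94 and 4.41 to 7.13, 7.40 and 8.58. Other genes added by the block were the small GTPase gene Rhob (1.22), Stx11, a vesicle fusion protein gene (1.39), the kinase gene Sik1 (1.07), the histone demethylase gene Kdm6b (0.66), the metallothionein Mt2 (0.88), the secreted pentraxin Ptx3 (0.87), Zswim4 (0.72), and Gadd45a and Gadd45b, described below. Rffl, which encodes a ubiquitin ligase, rose by 0.61 without the block (adjusted p = 0.019).

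**Figure D2:**
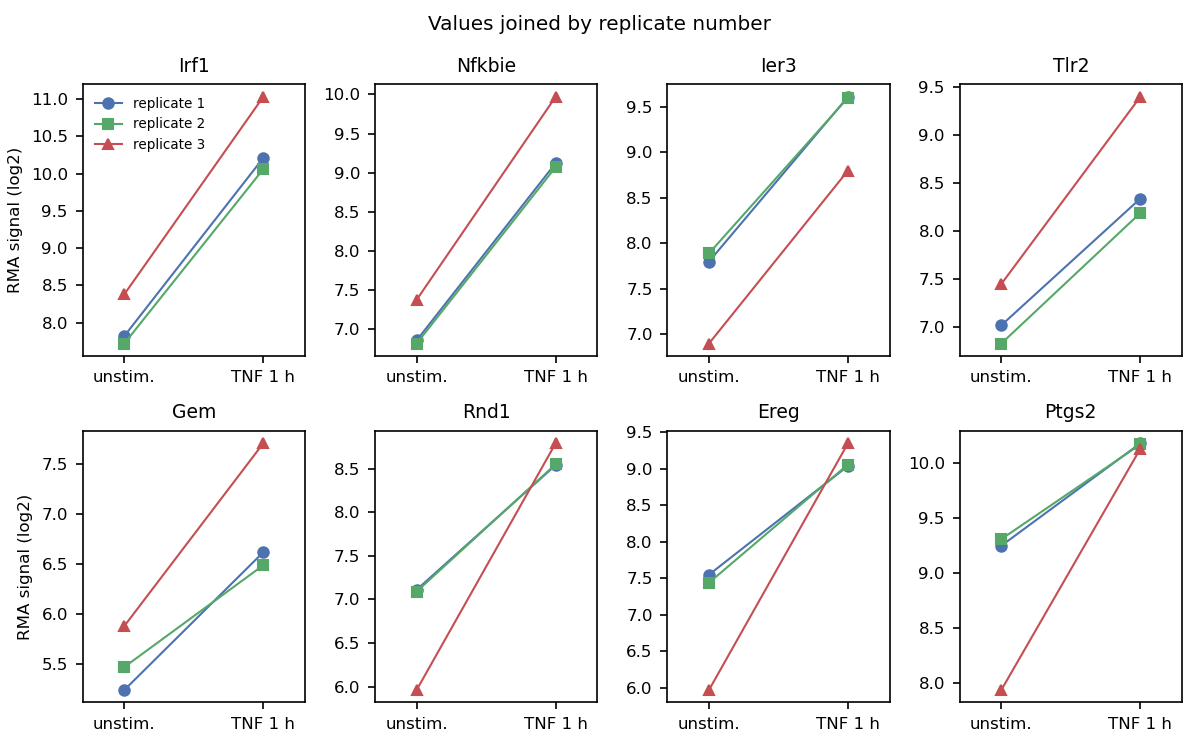
RMA signal (log2) of 8 genes on the 3 unstimulated (left) and 3 stimulated (right) wild-type arrays, joined by replicate number. In Irf1, Nfkbie, Ier3, Tlr2 and Gem the third array is apart from the others in both groups, so that the lines run nearly parallel. In Rnd1, Ereg and Ptgs2 the third array is apart only in the unstimulated group.

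In the genes that passed only with the block, the third unstimulated and the third stimulated array stood apart from the others of their groups. These genes were chosen by a fit that favours such shared shifts. For these 29 higher genes, the third unstimulated array was the highest in 27 and the third stimulated array the highest in 28. For the 26 genes higher without the block, it was the highest in 8 at rest and in 22 after stimulation. The median paired differences over the 29 genes were 1.01, 0.95 and 1.34 for replicates 1, 2 and 3, and all 29 had a positive difference in each pair. In Tlr2 the unstimulated values were 7.02, 6.83 and 7.45 and the stimulated values 8.34, 8.19 and 9.40. In Ier3 the third array was instead the lowest in both groups. The values were 7.80, 7.89 and 6.90 before and 9.61, 9.60 and 8.80 after, with paired differences of 1.82, 1.71 and 1.91. All 55 genes that were higher in either fit had every stimulated array above every unstimulated one. They were chosen by fits to these same arrays, which favour such genes, so their separation is a description. Over all probe sets 4.01% were separated upward and 6.18% downward.

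A further 11 genes differed by at least 1 log2 unit and passed in neither fit. Of these, 10 had a positive difference, and Mir140 had one of -1.0. The largest was Ereg, the gene for the EGF receptor ligand epiregulin, with 7.55, 7.44 and 5.97 before and 9.04, 9.06 and 9.35 after stimulation, a difference of 2.16 (adjusted p = 0.091 without and 0.068 with the block). Ptgs2, which encodes an inducible cyclooxygenase of prostaglandin synthesis, had 9.25, 9.31 and 7.94 before and 10.18, 10.17 and 10.13 after. In both genes the third unstimulated array was low and the third stimulated array near the others. The difference between the third arrays was 3.38 and 2.19, against 0.85 to 1.62 between the other same-numbered arrays. Edn1 (endothelin-1) and Adm (adrenomedullin), vasoactive peptide genes, differed by 1.27 and 1.29, Saa3 by 1.49, Ccl9 by 1.52, Ccl5 by 1.07 and Egr1 by 1.12. Among 41 growth factor genes none passed in either fit, although 12 (29.3%) were higher at an unadjusted p of 0.05 and none lower. Over all genes 3.84% were higher and 3.74% lower at that threshold.

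**Figure D3:**
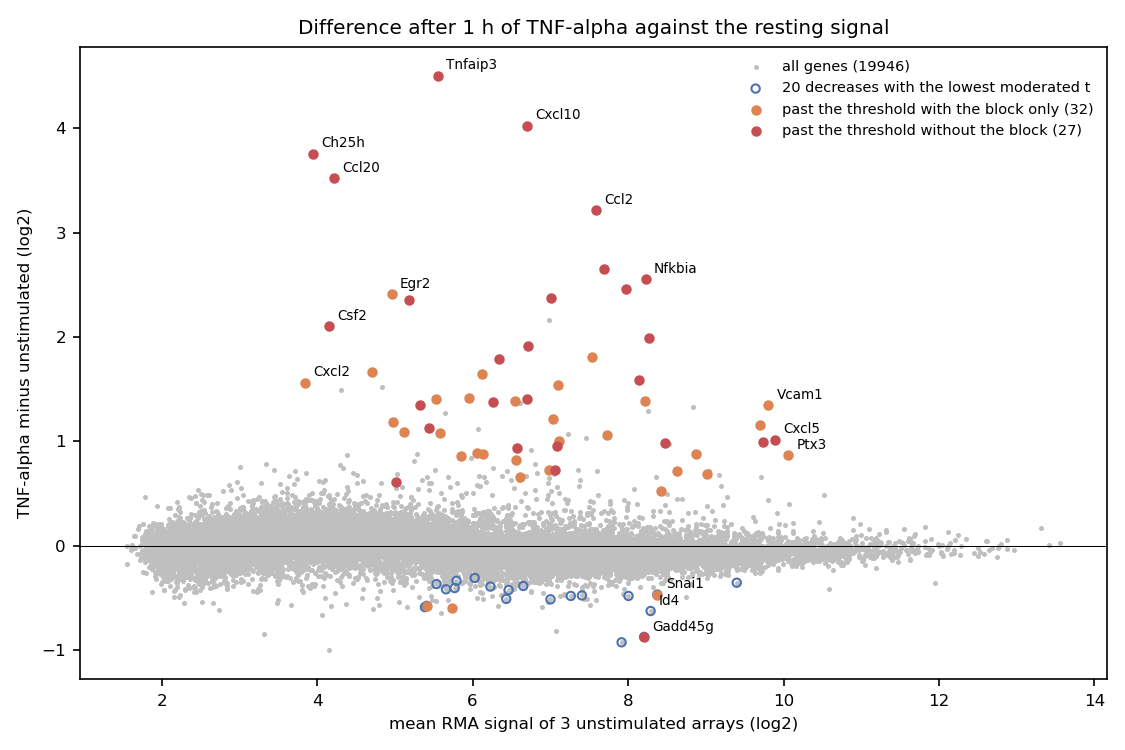
Difference between the stimulated and unstimulated means (log2, vertical) against the mean of the 3 unstimulated arrays (log2, horizontal) for 19946 genes, 1 probe set per gene; red and orange mark genes past the threshold without the block and with the block only, and open circles the 20 named decreases. The responders span resting means of 3.84 to 10.06, and the named decreases reach no further than -0.92.

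Most responders lay above the middle of the array before stimulation. The 55 genes higher in either fit had resting means between 3.84 and 10.06, with a median of 6.70, the 66.7th percentile of the tested probe sets. Of the 55, 7 lay below the middle of the resting array (Cxcl2, Ch25h, Csf2, Ccl20, Btg2, Egr2 and Icam1), 29 in the next quartile and 19 in the top quartile. After stimulation 41 lay in the top quartile and none below the middle. Vcam1, Gadd45b, Cxcl5, Csf1, Ptx3 and Rnd3 were already above the 90th percentile at rest, where further gains were 0.68 to 1.35. At the other end Ch25h moved from the 36.2nd to the 79.4th percentile. Of the 26 genes higher without the block, 3 lay below the middle at rest. The median standard error was 0.09 to 0.11 in all 4 quartiles of mean signal over the 9 arrays. Percentiles rank probe sets by signal, which also depends on the probes.

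The promoters of the responders can be set beside these values. RefSeq promoter windows, from 250 bases before to 50 bases after the annotated start on GRCm38.p6, were matched by symbol for 42 of the 55 higher genes and for 15619 of the 19946 genes (1 chromosome was left out). The κB motif was searched on both strands as GGNNTTTCC and as the wider GGNNNTTCC, which includes every match of the first. The first form was in the windows of 9 of the 17 matched genes called without the block (52.9%), 7 of 25 called only with it (28.0%), and 1045 of all 15619 genes (6.69%). The wider form was in 58.8%, 40.0% and 21.9%. The TATA box letters TATAAA were in 29.4%, 16% and 13.6%, the AP-1 letters TGANTCA in 23.5%, 16% and 8.09%, and the GC box letters GGGCGG in 64.7%, 88.0% and 52.9%. The cyclic AMP response element TGACGTCA was in 1 of 17, 2 of 25 and 2.71% of all. Of 22 matched chemokine genes, responding or not, 31.8% held the first κB form and 40.9% the TATA letters. These shares are descriptions of 300-base windows, and a gene without the letters can hold them elsewhere. Letters counted wherever they lay in a window, so a share of TATAAA is not a share of working TATA boxes. For example, TATAAA lay 19 and 13 bases past the start in Nfkbia and Icam1, and at -6 and -225 in Cx3cl1 and Tnfaip3. A gene could have several windows, and a match in any of them counted. The mean number per gene was 1.18 without the block, 1.44 only with it and 1.23 over all genes. Among the named decreases it was 1.0. More sequence was thus searched per gene in some sets than in others.

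The upstream stretches below show how the κB letters lie in genes whose values are given above, read toward the gene and ending before its start, with every match of either form in capitals. They are taken from the RefSeq windows on GRCm38.p6. Nfkbia holds 3 matches, 211 to 29 bases before the start, Cxcl1 and Cxcl2 each hold a pair at similar distances (89 and 70 bases, and 96 and 77 bases), and Cxcl10 holds a pair at 158 and 103 bases. Tnfaip3 has 2 windows, and the one shown has matches 24 and 12 bases before its start. Nr2f2 is the only one of 14 matched genes among the 20 decreases with the first form. The wider form was in 5 of these 14 (35.7%), beside 40.0% of the genes called only with the block and 21.9% of all genes.
Nfkbia, chr12:55492648-55492888, minus strand: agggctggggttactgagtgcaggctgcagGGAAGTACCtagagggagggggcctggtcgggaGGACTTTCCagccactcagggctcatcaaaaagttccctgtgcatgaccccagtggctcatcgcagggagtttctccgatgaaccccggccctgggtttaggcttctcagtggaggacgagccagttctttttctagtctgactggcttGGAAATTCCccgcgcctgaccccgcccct
Nfkbie, chr17:45555565-45555662, plus strand: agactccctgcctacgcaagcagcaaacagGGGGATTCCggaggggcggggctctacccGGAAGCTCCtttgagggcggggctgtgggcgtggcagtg
Tnfaip3, chr10:19015411-19015464, minus strand: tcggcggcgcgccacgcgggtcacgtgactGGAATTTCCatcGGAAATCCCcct
Cxcl1, chr5:90891126-90891213, plus strand: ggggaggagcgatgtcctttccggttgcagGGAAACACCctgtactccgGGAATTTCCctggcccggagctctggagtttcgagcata
Cxcl2, chr5:90903773-90903860, plus strand: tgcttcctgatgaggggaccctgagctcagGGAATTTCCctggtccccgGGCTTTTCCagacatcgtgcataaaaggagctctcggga
Cxcl10, chr5:92348954-92349077, minus strand: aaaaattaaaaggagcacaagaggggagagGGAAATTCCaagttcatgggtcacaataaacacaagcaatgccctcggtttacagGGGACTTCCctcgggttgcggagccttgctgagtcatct
Ccl20, chr1:83116656-83116724, plus strand: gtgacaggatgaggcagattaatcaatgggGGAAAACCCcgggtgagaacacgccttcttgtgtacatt
Icam1, chr9:21015757-21015894, plus strand: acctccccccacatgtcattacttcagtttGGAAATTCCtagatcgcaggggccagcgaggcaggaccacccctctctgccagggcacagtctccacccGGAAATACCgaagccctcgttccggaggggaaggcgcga
Bcl3, chr7:19822821-19822889, minus strand: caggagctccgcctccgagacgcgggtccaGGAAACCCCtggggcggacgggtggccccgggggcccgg
Ier3, chr17:35821544-35821612, plus strand: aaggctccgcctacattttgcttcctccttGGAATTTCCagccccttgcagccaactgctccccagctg
Nr2f2, chr7:70366760-70366828, minus strand: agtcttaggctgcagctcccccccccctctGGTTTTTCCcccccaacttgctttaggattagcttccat

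**Figure D4:**
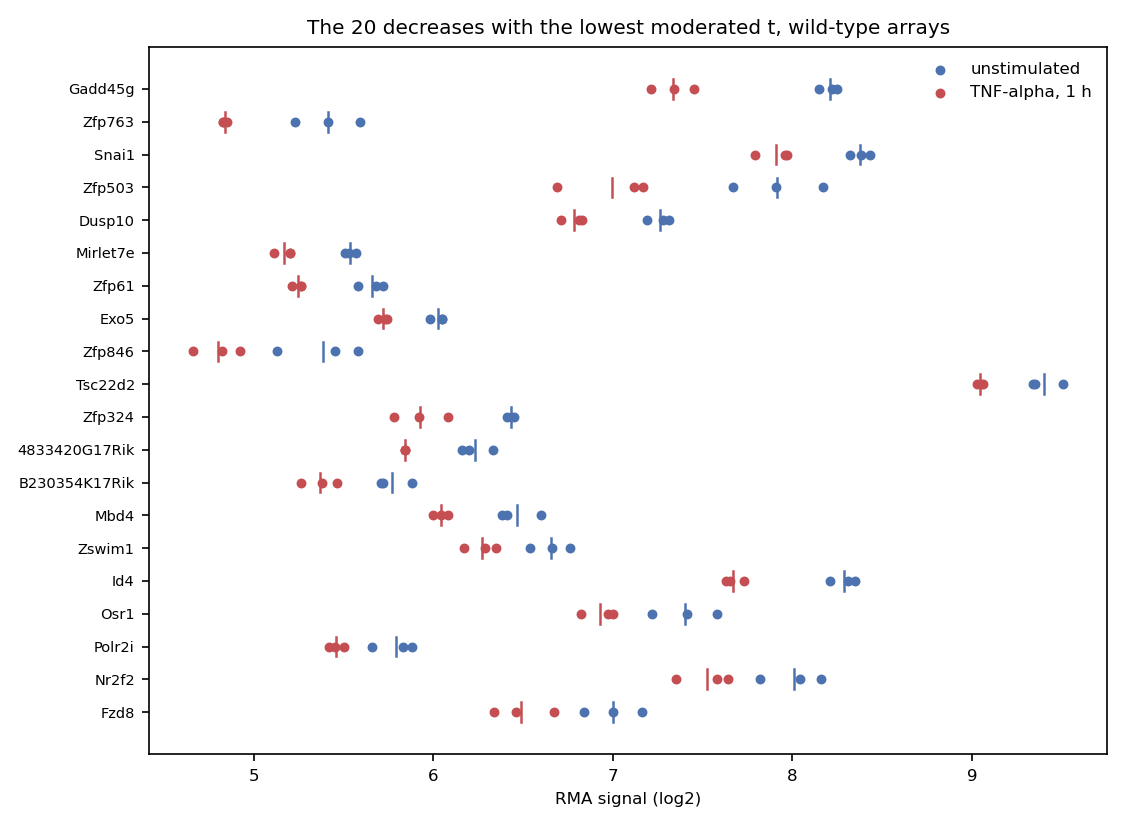
RMA signal (log2) on the 6 wild-type arrays for the 20 genes with the lowest moderated t among single-gene probe sets above the median signal; blue is unstimulated, red is after 1 h of TNF-α, and vertical ticks are group means. In all 20 the 3 red points lie below the 3 blue ones; only Gadd45g passed the threshold without the block.

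Decreases past the adjusted threshold were few and small. At an unadjusted limma p of 0.05, 839 probe sets (3.58%) were lower and 824 (3.52%) higher. Gadd45g, a growth-arrest and stress gene that activates p38 and JNK signalling, was the single gene lower without the block. Its values were 8.22, 8.15 and 8.25 before and 7.34, 7.45 and 7.21 after stimulation, a difference of -0.87 (standard error 0.09, adjusted p = 0.0061; 0.010 with the block). Leaving out the first stimulated array raised its adjusted p to 0.051. Its 2 relatives had differences in the other direction: Gadd45b went from 9.70, 9.56 and 9.83 to 10.76, 10.72 and 11.09, and Gadd45a from 7.04, 6.92 and 7.36 to 7.88, 7.91 and 8.54, with differences of 1.16 and 1.00 that passed with the block (adjusted p = 0.0040 and 0.0038) and not without (0.081 and 0.16). A further 3 genes fell with the block. Snai1, the zinc finger repressor of epithelial genes, had 8.43, 8.38 and 8.32 before and 7.96, 7.97 and 7.79 after, a difference of -0.47 (adjusted p = 0.12 without and 0.0497 with the block). Mab21l1, a developmental gene, differed by -0.59 (0.39 and 0.019), and Zfp763, a zinc finger gene, by -0.57 (0.084 and 0.0497).

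The 20 genes with the lowest moderated t above the median signal were chosen by that value, so their order and their separation are descriptions. All 20 had an unadjusted p under 0.05. Their differences ran from -0.92 (Zfp503) to -0.31 (Exo5), and their resting means from 5.39 to 9.40. Beside Snai1 and Zfp503, the 20 included Id4, an inhibitor of basic helix-loop-helix factors (8.35, 8.21 and 8.31 before, 7.73, 7.63 and 7.65 after), Osr1, a zinc finger factor of mesenchyme (7.41, 7.22 and 7.58 before, 6.82, 6.97 and 7.0 after), the orphan nuclear receptor gene Nr2f2 (8.16, 8.04 and 7.82 before, 7.64, 7.58 and 7.35 after), Zfp61, Zfp324, Zfp763 and Zfp846. Zfp503, which encodes a zinc finger co-repressor, had the largest difference but also wide groups, at 7.67, 7.91 and 8.17 before and 7.12, 7.17 and 6.69 after (adjusted p = 0.13 without and 0.14 with the block). The 20 also included Dusp10, a phosphatase of JNK and p38 (7.19, 7.31 and 7.28 before, 6.81, 6.83 and 6.71 after), the Wnt receptor gene Fzd8, and the DNA glycosylase gene Mbd4. Tsc22d2, Zswim1, Polr2i, 4833420G17Rik and B230354K17Rik were among the 20 as well. The list also held Mirlet7e, a probe set named for the let-7e locus, which measures total RNA transcribed there and not the mature microRNA. Apart from Gadd45g, Snai1 and Zfp763, none of the 20 passed in either fit.

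No test of a list as a whole was run, and the following is a description. Of 317 genes named Zfp and a number, most of which encode DNA-binding zinc finger proteins, 228 (71.9%) had a difference below 0, against 55.3% of all genes. Their median was -0.08 against -0.02. Above the median signal the medians were -0.09 for 190 Zfp genes and -0.06 for all genes, and in the brightest quartile 82.8% of the Zfp and 77.1% of the other genes were below 0. At an unadjusted p of 0.05, 46 were lower (14.5%) and 4 higher, while over all genes 746 (3.74%) were lower and 765 higher. Only Zfp763 passed the adjusted threshold downward, with the block, and only Zfp36, whose protein binds RNA, passed upward. The share was above that of the other genes in each quartile of signal: 7.69%, 7.95%, 19.9% and 13.8% of the Zfp genes from the dimmest to the brightest quartile, and 2.90%, 0.778%, 5.90% and 4.77% of the others. Under the 16 alternative settings the share of Zfp genes lower at this threshold ran from 10.1% (without the second stimulated array) to 23.7% (arrays centred on their medians), and the share of all genes from 2.63% to 8.03%. Within the class, Zfp40 differed by -0.57 (4.78, 4.69 and 4.92 before, 4.29, 3.98 and 4.40 after) and Zfp61 by -0.42 (5.72, 5.68 and 5.58 before, 5.26, 5.21 and 5.26 after), and most of the rest by less than 0.2. Family members can share sequence, so that their probe sets are not independent readings.

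**Figure D5:**
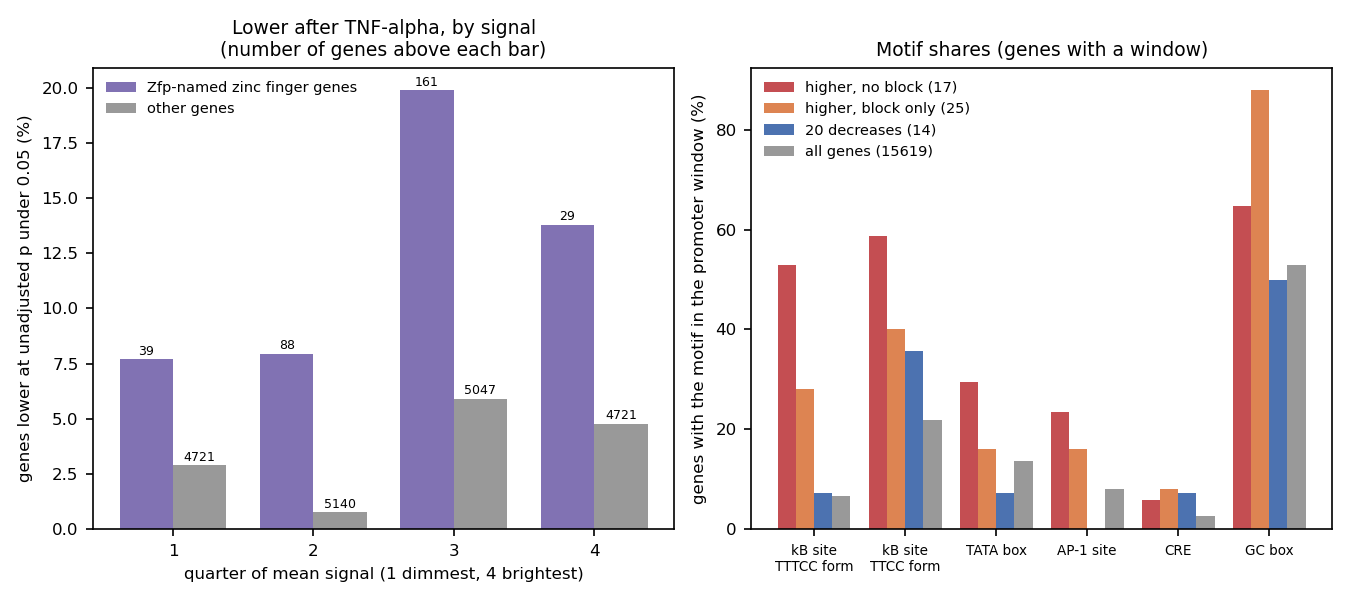
Left, share (%) of Zfp-named genes and of all other genes lower after TNF-α at an unadjusted p under 0.05, in quartiles of mean signal, with the number of genes above each bar; right, share (%) of genes with each motif in the promoter window, for 17 genes higher without the block, 25 higher with the block only, 14 of the 20 decreases and all 15619 genes with a window. The Zfp bar is above the other in every quartile, and the κB bars are highest in the genes called without the block.

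Of 24 BMP and TGF-β targets and antagonists, 18 (75%) had a negative difference (median -0.10) and none passed. Their median resting signal lay at the 77.0th percentile, and 77.1% of the genes without a Zfp name in the brightest quartile had a negative difference. At an unadjusted limma p of 0.05, 5 of the 24 were lower (20.8%) and 3 higher (12.5%). Over all genes 3.74% were lower and 3.84% higher, and 4.77% of those genes in the brightest quartile were lower. The Id genes, which respond to BMP, had differences of -0.48 (Id1), -0.57 (Id2), -0.22 (Id3) and -0.62 (Id4), whereas Smad7 and Skil, feedback inhibitors of TGF-β, had differences of 0.72 and 0.67. Of 19 MAP kinase phosphatase and Sprouty genes none passed; Dusp10 lay at -0.48, Dusp8 at 0.75 and Errfi1 at 0.98, and Dusp1, the best-known early phosphatase gene, at 0.05 (adjusted p = 0.96). Socs3, a feedback inhibitor of cytokine signalling, was at 7.36, 7.38 and 8.03 before and 7.02, 7.03 and 7.16 after stimulation (-0.52, adjusted p = 0.61), and Pim1 differed by 0.52. No member of the Notch (27 measured), Wnt (31), YAP and SRF (27), circadian (21) or FoxO (23) lists passed in either fit, and their medians lay between -0.07 and 0.03.

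In housekeeping and effector classes, none of 61 cytosolic ribosomal, 76 mitochondrial ribosomal, 39 proteasome, 35 cell-cycle, 26 replication-dependent histone or 44 collagen genes passed, and their medians were -0.03, -0.06, -0.06, -0.08, -0.06 and 0.10. The interferon-stimulated genes (36 measured) also held none that passed, with a median of 0.05 and a largest difference of 0.63. Of 33 matrix proteases and inhibitors 5 (15.2%) were higher at an unadjusted p of 0.05, against 3.84% of all genes, and none passed after adjustment. Of 1015 olfactory receptor genes, none passed in either direction. In all, 32 of the 56 gene lists held no gene called in either fit.

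Small differences followed the signal. Among the second quartile of probe sets, with mean signals of 3.33 to 5.02, 7.14% had all stimulated arrays above all unstimulated ones and 1.13% the reverse, and the median difference was 0.07. In the third quartile (5.02 to 7.35) the shares were 3.93% and 8.99% and in the brightest 2.39% and 11%, with medians of -0.05 and -0.06. In the dimmest quartile they were 2.56% and 3.62%. The class medians above are not adjusted for this. As examples, the 32 collagen genes and the 35 cell-cycle genes above the 50th percentile at rest had medians of 0.09 and -0.08, against -0.06 for all 9959 genes there.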

How the data were processed

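RNA from 9 samples was hybridised to Affymetrix Mouse Gene 1.0 ST arrays, 1 array per sample and 3 per group. The authors' deposited values are log2 signals per probe set after RMA (background correction, quantile normalization and summary over probes); the sources used here name no RMA version, and scanner files were not analysed here. The number of arrays limits the precision. The platform annotation gave 21797 of 35557 probe sets 1 gene symbol, 1613 several and 12147 none. The 23410 with a symbol were tested, and no symbol needed updating.

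limma 3.58.1 (R 4.3.3) fitted 3 group means to all 9 arrays (residual df 6, prior df 3.195). The contrast was stimulated minus unstimulated wild type, with Benjamini-Hochberg adjustment over all tested probe sets at 0.05. Same-numbered unstimulated and stimulated arrays deviated together (correlations of 0.298, 0.110 and 0.403), so the replicate number was taken to pair them; what the number marks is not stated, and 1 differently numbered combination reached 0.249. Percentiles are ranks among tested probe sets. A gene is represented by its probe set with the highest mean over the 9 arrays.

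Genes named are all those past the threshold in either fit, the 20 single-gene probe sets above the median signal with the lowest moderated t, and up to 5 members per list by size of t; others named were chosen after their values were seen. The 56 gene lists (42 of symbols, 14 by symbol pattern) and the members were chosen with earlier results of these data known, and the histone pattern was rewritten to match current symbols. One of the lists is not reported here. Of 1089 listed symbols 73 were not matched and are not analysed here. Motif counts used Python 3.11.15 on RefSeq windows. On simulated data the fit recovered 62%, 96%, 100% and 100% of probe sets changed by 0.5, 1, 2 and 4 log2 units. These changes were placed on randomly picked probe sets, with independent noise at each set's estimated spread and no shift shared by replicate number. The shares therefore do not give the share of real responses found. In the measured data Ereg and Nr4a1, for example, differed by more than 1 unit and passed in neither fit. Alternatives are given at the end.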

Additional observations from a re-analysis of the deposited data

Results flagged for a closer look

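Among the 12147 probe sets that the annotation pairs with no gene, and which no comparison above used, 2 passed the threshold when all 35557 deposited probe sets were fitted (limma, adjusted over all of them). Probe set 10338799 had values of 2.71, 2.97 and 2.50 on the unstimulated and 1.34, 1.47 and 1.14 on the stimulated wild-type arrays, a difference of -1.41 (adjusted p = 0.021). Probe set 10341125 had values of 2.09, 2.01 and 2.10 against 1.31, 1.34 and 1.24, a difference of -0.77 (adjusted p = 0.044). Both signals are among the dimmest on the arrays, and their genes, if any, are not given in the table used here.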

How the results depend on the processing

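The 76 genes called in either fit or listed among the 20 decreases kept the sign of their difference in each of the 16 alternatives that tested them. Other genes named above were not part of this check. The number past the threshold moved. Against 26 higher and 1 lower, the counts were 51 and 4 with the replicate block, 13 and 0 with the 6 wild-type arrays alone and the replicate block, 9 and 0 with these 6 arrays and no block, 10 and 3 over all deposited probe sets, 44 and 3 after a further quantile normalization, and 51 and 5 with array weights. Restricting the test to probe sets above the median signal gave 39 and 2, and centring each array on its median 26 and 3; centring shifted all differences by -0.06. Where limma called none lower, 1046, 649 and 676 of 19946 genes were lower at an unadjusted p under 0.05 (6 arrays with the block, 6 arrays without it, and without the first stimulated array). Without 1 wild-type array the count ranged from 8 (without the second unstimulated array) to 18 higher and from 0 (without the first stimulated array) to 2 lower. Of the 27 genes called, 8 stayed past the threshold in every such test, and 6 (Tnfaip3, Cxcl10, Ccl7, Nfkbia, Lif and Junb) under all 16 alternatives. Irf1, Klf10, Zc3h12a, Cxcl5, Csf1, Slc7a2, Relb, Rel and Rffl were lost whichever array was left out, with adjusted p values up to 0.27. The cause of these shifts was not tested. Fewer arrays also leave fewer degrees of freedom. The 9 genes with the κB form GGNNTTTCC were the same number when any probe set of a gene could call it.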
